A study of Rattus norvegicus with 8 samples.

Results

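Translation initiation and elongation factors were followed in pyramidal neurons of the rat hippocampal CA3 region 24 hours after traumatic brain injury. They were taken as the array probes whose gene name begins with Eif or Eef and a digit, which gave 85 probes for 50 of 35561 gene names, among 41012 probes besides controls. All 50 genes were found in the RefSeq annotation, 15 of them under a newer symbol, which is given in parentheses below. RNA of laser-captured neurons was measured on 8 one-colour Agilent whole-genome arrays, 2 for each of 4 groups, to compare neurons that die after injury with neighbours that survive. All rats were male Sprague-Dawley rats: naive rats had no treatment, sham rats had the surgery without the injury, and surviving and dying neurons came from rats given a moderate fluid percussion injury. Dying neurons were those stained by Fluoro-Jade, a dye that marks degenerating neurons, and surviving neurons those left unstained beside them. Each surviving or dying sample held about 600 neurons, and the samples were pools of several rats that the labels do not tie to single animals, so that p-values measure the spread between 2 pools per group. In such pools, fewer neurons of a kind and less RNA per neuron cannot be told apart.

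As background, translation begins when eIF2, bound to GTP and the initiator methionyl-tRNA, joins the small ribosomal subunit with eIF1, eIF3 and eIF5, while eIF4E, eIF4G and eIF4A bring in the capped mRNA. The exchange factor eIF2B reloads eIF2 with GTP, and stress kinases stop this step by phosphorylating the alpha subunit of eIF2, while unphosphorylated 4E-binding proteins hold eIF4E away from eIF4G. The eEF1 complex then delivers aminoacyl-tRNAs and eEF2 moves the ribosome along, and in injured brain the phosphorylation of eIF2 and of eEF2 is a known brake on protein synthesis that an RNA measurement does not show.

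Levels are given as log2 of the signal over the median of the same array, so that 0 is the median probe, and a difference is a difference of group means on that scale. The array medians were 28.8 and 22.7 signal units in naive, 16.5 and 16.4 in sham, 52.4 and 48.3 in surviving pools and 19.4 and 53.0 in dying pools, and 49.2 to 71.7% of the probes of an array were well above background. Of the 85 member probes, 67 exceeded background clearly on each of the 8 arrays, 13 on some and 5 on no array. The SD of the difference between replicates over the members was 1.08 in dying, 0.50 in naive, 0.44 in sham and 0.55 in surviving pools, while the median absolute difference was 0.71, 0.78, 0.25 and 0.33, so that the dying pools differed most around their median shift and the naive pools through that shift. Naive and sham arrays shared 1 slide and surviving and dying arrays the other, so that in comparisons with sham the injury and the slide cannot be told apart, whereas surviving against dying and sham against naive lie within a slide. A gene was read from its main probe, the brightest of its probes with a RefSeq mRNA accession, and the median over the 64 member probes measured well above background on every array was 4.74 and 5.32 in naive, 5.78 and 5.60 in sham, 4.56 and 4.46 in surviving pools and 4.12 and 4.21 in dying pools.

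**Figure D1:**
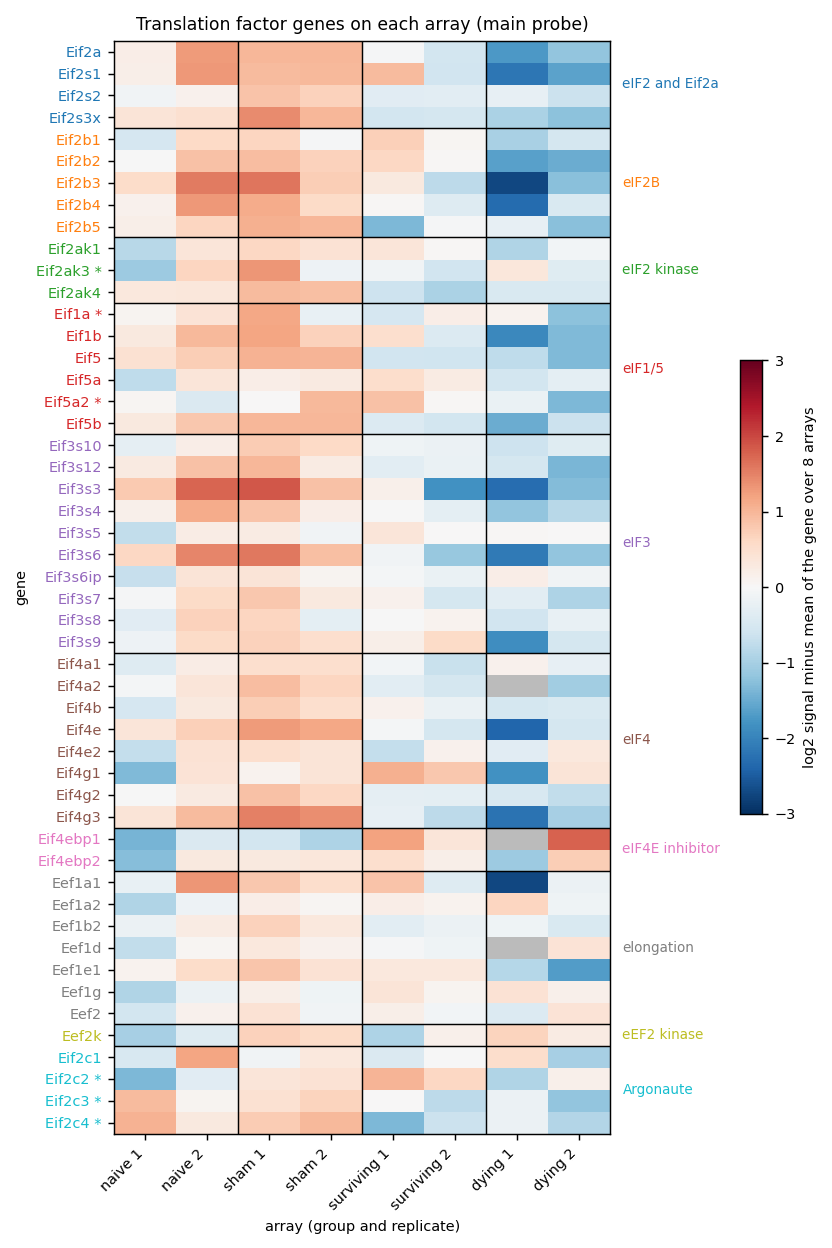
Log2 level of the main probe of each of the 50 genes on the 8 arrays, minus the mean of that gene, with genes grouped by role. A star marks a gene not well above background on all 8 arrays and grey a spot that was left out; Eif2s1, Eif2b2 and Eif1b are lowest in the dying pools and Eif4ebp1 is highest there.

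Between surviving and dying neurons, the initiation factors leaned to higher levels in surviving neurons, the eIF2B subunits most. The elongation factors had a median near 0, with 6 of 9 probes higher. The median difference was 0.49 for eIF2 taken with Eif2a, 1.47 for eIF2B, 0.67 for eIF1 and eIF5, 0.56 for eIF3 and 0.45 for eIF4. Each was above 0 also in the 5 other scalings and corrections, although with normexp eIF3 (1.67), elongation (1.52) and eIF4 (1.44) lay above eIF2B (1.37). Markers of cell types differed in this comparison too, with medians of 1.03 for excitatory neuron, -1.7 for microglial and -1.47 for endothelial genes. Those of astrocyte, oligodendrocyte and interneuron genes were 0.47, -0.17 and -0.28. Their part in the lean was not tested. With limma, 0 of 73 member probes tested passed an adjusted p of 0.05, as did 0 of all 27404 probes (0%). In that fit 10 member probes, or 13.7%, had an unadjusted p under 0.05, beside 20.2% of all probes. Of these 10, 9 were higher in surviving neurons. So were 2793 of the 5530 such probes on the array and 2129 of the 2655 with a RefSeq mRNA accession. The median difference of the member probes was 0.53, against 0.15 for all probes tested and 0.38 for the probes with a RefSeq mRNA accession, the class to which every member belongs. Both surviving pools lay above both dying pools for 35 of the 73 member probes, or 47.9%, while the share was 30.2% over all probes and 36.7% over RefSeq mRNA probes. The reverse held for 8 member probes, or 11.0%, beside 21.5% of all probes and 11.5% of RefSeq mRNA probes. By a filter like that of the study's methods, a difference over 2-fold with replicates within 50% of each other, which the study applied against sham after scaling each gene to its median and which is applied here between surviving and dying neurons without that step, 2 of 69 member probes were higher and 0 lower in surviving neurons, shares that were near those of the array, 2.81% higher and 2.10% lower of 21484 probes. Without surviving replicate 1, dying replicate 1 or dying replicate 2 the 8 probes that were lower without overlap became 15, 18 and 17. With a single array left in a group any probe separates more easily, and the number higher without overlap rose too. These rises are therefore not read as a result about the members.

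**Figure D2:**
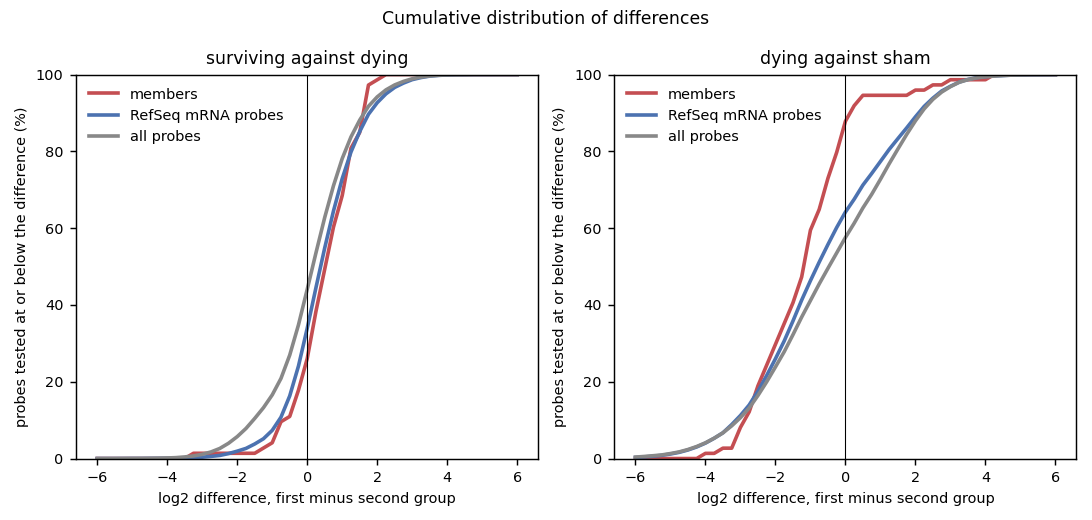
Cumulative share of probes against the log2 difference, for surviving minus dying and for dying minus sham neurons, with lines for the member probes, the RefSeq mRNA probes and all probes tested. In the middle of the range the member line lies to the right of the others between surviving and dying neurons (median 0.53) and to the left in dying against sham neurons (median -1.17), while in the tails the lines cross: 1.37% of the members were above 2 between surviving and dying neurons, beside 5.82% of all probes, and 8.11% at or below -3 in dying against sham neurons, beside 10.6%. In dying against sham neurons the median of the members stayed below that of all probes in the 5 other scalings and corrections.

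Among the subunits of eIF2, Eif2s1, which encodes the alpha subunit that the stress kinases phosphorylate, is one of the genes that the study picked on these arrays, so that its direction is not independent evidence. Its log2 level was 2.93 and 4.05 in naive, 3.70 and 3.71 in sham, 3.70 and 2.18 in surviving pools and 0.57 and 1.13 in dying pools. Both dying pools were thus the lowest of the 8, and the surviving pools differed from each other more than the sham pools did. The difference between surviving and dying neurons was 2.09 (SE 0.66), 4.25-fold, with both surviving pools above both dying pools and an adjusted p of 0.160 in limma, and was 1.33 without surviving replicate 1. In dying against sham neurons, Eif2s1 fell by 2.85 on the log2 scale (adjusted p = 0.0129, lower in 2 of 2 dying pools), whereas surviving and sham pools overlapped, with a difference of -0.77 that was above 0 in the 5 other scalings and corrections.

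The beta subunit gene Eif2s2 had log2 levels of 8.79 and 9.01 in naive, 9.74 and 9.58 in sham, 8.56 and 8.57 in surviving pools and 8.64 and 8.25 in dying pools, with surviving and dying pools overlapping. Eif2s3x (Eif2s3), for the gamma subunit that binds GTP and the initiator tRNA, stood at 5.70 and 5.80 in naive, 6.73 and 6.32 in sham, 4.77 and 4.79 in surviving pools and 4.36 and 4.09 in dying pools. Its level in both injured groups was below that of both uninjured groups: it fell by 1.74 in surviving (adjusted p = 0.0399) and by 2.30 in dying neurons (adjusted p = 0.00798) against sham, in 2 of 2 pools each, although the first call was lost in the other scalings. Eif2a, which encodes a single-chain initiation factor distinct from eIF2, was at 3.12 and 4.20 in naive, 3.91 and 3.92 in sham, 2.87 and 2.37 in surviving pools and 1.18 and 1.74 in dying pools. It was 1.16 higher in surviving than in dying neurons (adjusted p = 0.278, 2 of 2 pools) and fell by 2.46 in dying against sham neurons (adjusted p = 0.0117, 2 of 2 pools).

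The exchange factor eIF2B showed the same order of groups in most of its 5 subunits. All 6 of its probes were higher in surviving than in dying neurons (55.9% of all and 66.1% of RefSeq mRNA probes), although 1 of the 6 turned under quantile normalization. The median difference of 1.47 rested largely on dying replicate 1, as the median level was 3.42 and 3.23 in surviving and 1.29 and 2.96 in dying pools. Without that replicate the main probes of Eif2b1 to Eif2b5 differed by 0.94, 1.82, 1.01, 0.29 and 0.56. Eif2b2, for the beta subunit, was at 6.54 and 7.43 in naive, 7.48 and 7.25 in sham, 7.19 and 6.60 in surviving pools and 4.94 and 5.07 in dying pools. The 2 dying pools were close together and far below the other 6, and the difference of 1.89 (SE 0.52), 3.70-fold, had the smallest adjusted p of any member between surviving and dying neurons, 0.145, with both surviving pools higher. Eif2b3, for the gamma subunit, was at 4.75 and 5.76 in naive, 5.80 and 4.94 in sham, 4.48 and 3.40 in surviving pools and 1.47 and 2.93 in dying pools, a difference of 1.74 between surviving and dying neurons (adjusted p = 0.226, 2 of 2 pools higher) that was 1.01 without dying replicate 1. Its other probe gave 1.71 (adjusted p = 0.179, 2 of 2 pools higher), so that both probes of this gene showed nearly the same size.

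The remaining subunits were less even. Eif2b1, for the alpha subunit that senses phosphorylated eIF2, was at 0.07 and 1.18 in naive, 1.22 and 0.54 in sham, 1.30 and 0.64 in surviving pools and -0.39 and 0.04 in dying pools, a difference of 1.15 between surviving and dying neurons (adjusted p = 0.304, 2 of 2 pools higher). Eif2b4, for the delta subunit, was at 3.56 and 4.74 in naive, 4.54 and 4.01 in sham, 3.48 and 3.06 in surviving pools and 1.12 and 2.98 in dying pools. Dying replicate 2 lay just under the surviving pools, and the difference of 1.22 (adjusted p = 0.376, 2 of 2 pools higher) was 0.29 without dying replicate 1 and 2.15 without dying replicate 2. Eif2b5, for the catalytic epsilon subunit, was at 4.87 and 5.33 in naive, 5.77 and 5.70 in sham, 3.35 and 4.65 in surviving pools and 4.46 and 3.44 in dying pools, where surviving and dying pools overlapped and the difference was 0.05. Against sham, 5 of the 6 eIF2B probes fell in dying neurons, where 26.9% of all probes did, a count that was 3 in each of the 4 other scalings and 0 with normexp, with a median of -2.29 that was 1.82 below the median of all probes (-0.47), and 0 of 6 passed in surviving neurons in limma, 2 of them with an unadjusted p under 0.05. Eif2b2 fell by 2.36 (adjusted p = 0.0111) and Eif2b3 by 3.17 (adjusted p = 0.0119) in dying neurons, in 2 of 2 pools each.

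**Figure D3:**
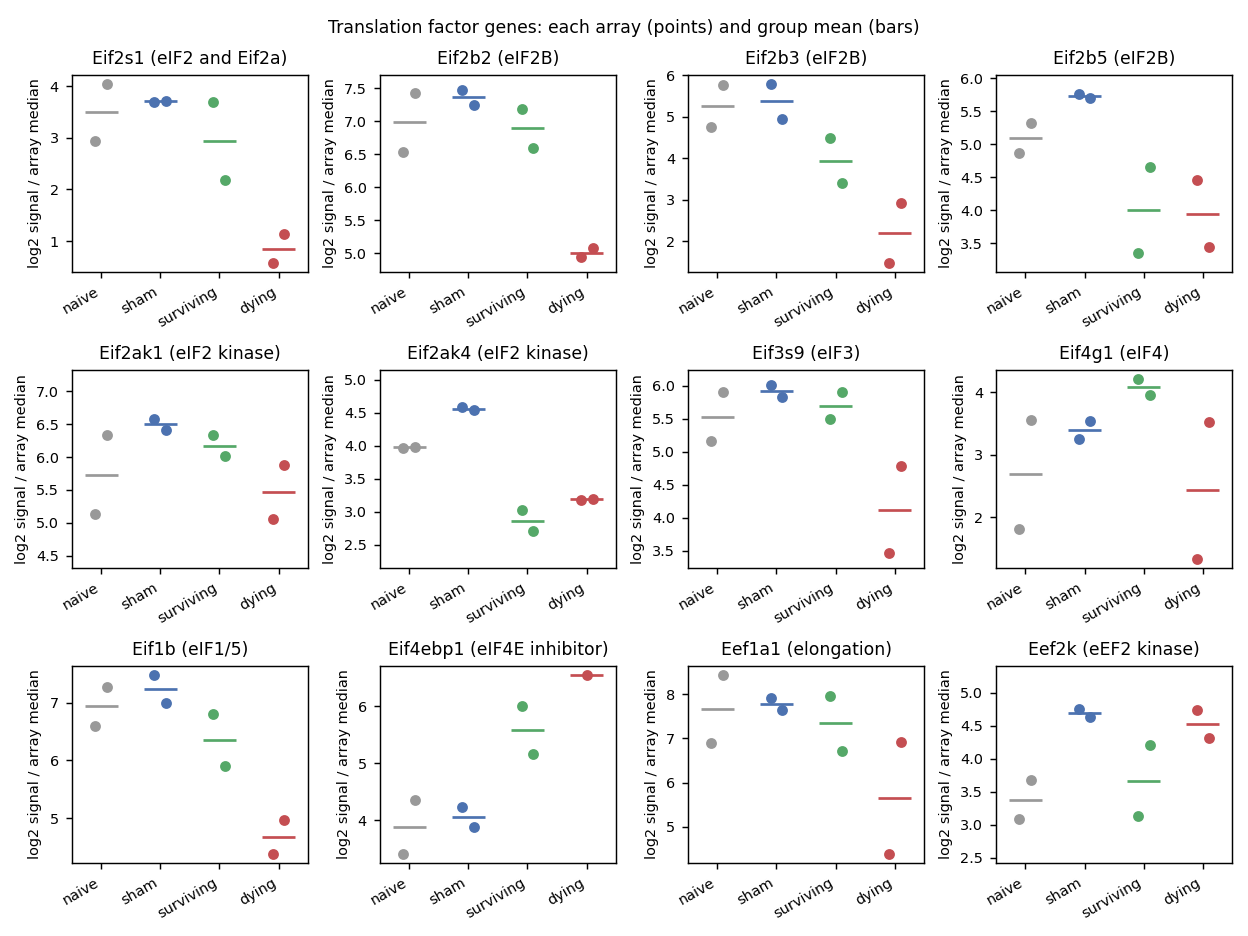
Log2 level over the array median on each array for 12 genes, each with its own vertical range; points are single arrays of the naive, sham, surviving and dying groups and bars are group means. Eif2s1, Eif2b2 and Eif2b3 are lowest in both dying pools, Eif2ak4 is lower in all 4 injured pools than in the 4 uninjured ones, and Eif4ebp1 has 1 dying array because the other spot was left out.

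The promoters of Eif2s1, Eif2b2 and Eif2b3, the genes of eIF2 and eIF2B with the largest differences between surviving and dying neurons, are shown from 250 bases before to 50 bases after the transcription start. The sequences are from RefSeq, build GRCr8, and run 5′ to 3′ on the plus strand of chr6:103405630-103405929 for Eif2s1, chr6:110597729-110598028 for Eif2b2 and chr5:135728592-135728891 for Eif2b3. Capitals mark matches on either strand to GCATGCGC, to CGGAAG, to CCAAT, to CACGTG or to TGATGNAA, which gave 2 matches in Eif2s1, 4 in Eif2b2 and 0 in Eif2b3.
Eif2s1: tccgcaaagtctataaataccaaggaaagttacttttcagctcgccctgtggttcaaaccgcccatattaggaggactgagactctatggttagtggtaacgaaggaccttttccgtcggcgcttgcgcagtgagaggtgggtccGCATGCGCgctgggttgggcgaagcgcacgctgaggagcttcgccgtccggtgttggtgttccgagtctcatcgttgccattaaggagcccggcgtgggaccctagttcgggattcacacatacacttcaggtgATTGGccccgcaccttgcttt
Eif2b2: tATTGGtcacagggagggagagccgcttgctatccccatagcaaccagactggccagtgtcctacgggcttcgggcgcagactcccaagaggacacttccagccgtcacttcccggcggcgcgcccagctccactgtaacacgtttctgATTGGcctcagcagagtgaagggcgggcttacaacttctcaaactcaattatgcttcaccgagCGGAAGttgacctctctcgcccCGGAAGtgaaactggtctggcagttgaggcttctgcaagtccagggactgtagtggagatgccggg
Eif2b3: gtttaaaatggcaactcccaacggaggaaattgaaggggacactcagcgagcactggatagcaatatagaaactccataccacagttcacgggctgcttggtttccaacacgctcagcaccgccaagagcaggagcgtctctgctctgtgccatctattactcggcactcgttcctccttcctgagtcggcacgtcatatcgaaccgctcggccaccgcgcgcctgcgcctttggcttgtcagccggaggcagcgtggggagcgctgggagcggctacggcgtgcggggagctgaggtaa
Among the 44 member genes with a promoter in the table, GCATGCGC was found in 4 (2.47% of all 33469 promoters), CGGAAG in 23 (16.6%), CCAAT in 16 (37.5%), CACGTG in 10 (6.42%) and TGATGNAA in 2 (3.98%). These 5 motifs were picked for display after 14 had been counted. The others were the full NRF1 motif of 10 bases, which contains GCATGCGC, in 1 member promoter (0.852%), TGACGT in 9 (7.94%) and TGACGTCA, which contains it, in 1 (1.83%), GGGCGG in 30 (33.1%), TATAAA in 3 (14.2%), ACTTCCGG in 9 (3.81%), CTTCC, which lies within ACTTCCGG and within the complement of CGGAAG, in 40 (70.1%), the palindromic ZBTB33 motif of 10 bases in 0 (0.373%) and the YY1 motif of 11 bases in 1 (0.675%). A cytosine followed by at least 4 pyrimidines exactly at the start was found in 1 member promoter (2.63% of all), and a cytosine followed by at least 5 pyrimidines between 4 bases before and 10 after it in 8 (8.42%). A match describes the letters in this window and nothing more.

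Of the eIF2 kinases, Eif2ak1, which encodes the heme-regulated kinase HRI, was at 5.14 and 6.33 in naive, 6.58 and 6.41 in sham, 6.34 and 6.01 in surviving pools and 5.06 and 5.88 in dying pools, a difference of 0.70 between surviving and dying neurons (adjusted p = 0.524, 2 of 2 pools higher) that was 0.29 without dying replicate 1 and 1.12 without dying replicate 2. Eif2ak4, for the kinase GCN2 that senses uncharged tRNA, was at 3.97 and 3.98 in naive, 4.59 and 4.54 in sham, 3.02 and 2.71 in surviving pools and 3.18 and 3.20 in dying pools. Its level separated injured from uninjured pools and hardly surviving from dying ones, where the difference was -0.33 (adjusted p = 0.720, 2 of 2 pools lower), was -0.17 without surviving replicate 2 and turned to 0.55 with the normexp background correction. Against sham, Eif2ak4 fell by 1.70 in surviving (adjusted p = 0.0402) and by 1.37 in dying neurons (adjusted p = 0.0406), in 2 of 2 pools each, and neither call was kept in the other scalings. Eif2ak3, for the kinase PERK of the endoplasmic reticulum, was well above background on 5 of 8 arrays, at -2.37 and -0.63 in naive, 0.04 and -1.43 in sham, -1.37 and -1.85 in surviving pools and -0.93 and -1.64 in dying pools. It was well above background on 1 of 2 surviving arrays, and surviving and dying pools overlapped, so that no difference is read from it. The kinase PKR carries the older name Prkr (Eif2ak2) on the array and so falls outside the name rule; it was added after its values were seen, at 3.31 and 3.55 in naive, 3.41 and 3.20 in sham, 3.21 and 3.06 in surviving pools and 0.06 and 2.91 in dying pools, with dying replicate 1 below the other 7.

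In the group of eIF1 and eIF5, 7 of 8 probes tested were higher in surviving than in dying neurons, a count that was 8 with the normexp correction. The share was 55.9% over all probes and 66.1% over RefSeq mRNA probes. Against sham, 5 fell in dying neurons, beside 26.9% of all probes, with 4 or 5 in the 4 other scalings and 0 with normexp. Eif1b, which encodes a factor close to the start-codon scanning factor eIF1, was at 6.60 and 7.28 in naive, 7.49 and 7.0 in sham, 6.80 and 5.90 in surviving pools and 4.37 and 4.97 in dying pools. Both dying pools were below all the others, with a difference of 1.68 (SE 0.55) from surviving neurons (adjusted p = 0.170, 2 of 2 pools) and a fall by 2.57 from sham (adjusted p = 0.0104, 2 of 2 pools). Eif5a, for the hypusine-bearing factor that helps ribosomes past proline stretches, was at 7.92 and 9.03 in naive, 8.88 and 8.95 in sham, 9.19 and 8.92 in surviving pools and 8.11 and 8.37 in dying pools, 0.81 higher in surviving than in dying neurons (adjusted p = 0.418, 2 of 2 pools). Eif5b, for the GTPase that joins the ribosomal subunits, was at 5.08 and 5.59 in naive, 5.79 and 5.78 in sham, 4.37 and 4.24 in surviving pools and 3.31 and 4.15 in dying pools. This gene was lower in both injured groups on all 3 of its probes. Against sham the main probe fell by 2.06 in dying neurons (adjusted p = 0.0158, 2 of 2 pools), a call not kept in each of the 4 other scalings. Its other probes fell by 2.70 and 2.90 in surviving neurons (adjusted p = 0.0117 and 0.0373) and by 2.55 and 4.17 in dying neurons (adjusted p = 0.00571 and 0.00584), in 2 of 2 pools each. In place of these 2 calls in surviving neurons, the group of eIF1 and eIF5 had 1 in each of the 4 other scalings and 0 with normexp. Eif5, for the protein that triggers GTP hydrolysis on eIF2, fell by 2.08 in dying against sham neurons (adjusted p = 0.0118, 2 of 2 pools), while Eif5a2 was well above background on 1 array.

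The scaffold eIF3, the largest initiation factor, had 11 of 14 probes higher in surviving than in dying neurons, a count between 9 and 13 in the other scalings and corrections. On the whole array 55.9% of probes were higher, and 66.1% of RefSeq mRNA probes. Eif3s9 (Eif3b), a core subunit, was at 5.16 and 5.90 in naive, 6.02 and 5.83 in sham, 5.49 and 5.90 in surviving pools and 3.46 and 4.78 in dying pools. On this scale surviving pools were in the range of the uninjured ones and dying pools below it, with a difference of 1.58 between them (adjusted p = 0.200, 2 of 2 pools) that became 0.91 without dying replicate 1 and 2.24 without dying replicate 2 (adjusted p = 0.0368). Eif3s6 (Eif3e) was at 4.37 and 5.22 in naive, 5.34 and 4.65 in sham, 3.66 and 2.62 in surviving pools and 1.64 and 2.57 in dying pools, a stepwise order in which it fell by 2.89 in dying against sham neurons (adjusted p = 0.0104, 2 of 2 pools). Eif3s4 (Eif3g), at 6.02 and 6.99 in naive, 6.72 and 6.08 in sham, 5.85 and 5.59 in surviving pools and 4.70 and 5.03 in dying pools, was 0.86 higher in surviving than in dying neurons (adjusted p = 0.400, 2 of 2 pools). Eif3s5 (Eif3f) differed less, by 0.17 between surviving and dying neurons and by -0.05 between dying and sham neurons, and both signs changed with the scaling or correction. The 3 probes of Eif3s10 (Eif3a) went different ways, and 1 of them was well above background on 3 arrays. It was at 3.65 and -0.34 in dying pools and in sham pools not well above background, at least 3.69-fold higher in dying neurons (adjusted p = 0.0220, 1 of 2 dying pools above the sham limit), a limit that rested on dying replicate 1 and was not above 1 without it.

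In the cap-binding group eIF4, 14 of 19 probes tested were higher in surviving than in dying neurons, 13 to 18 in the other scalings and corrections. Of all probes 55.9% were higher, and of RefSeq mRNA probes 66.1%. Eif4g1, for the scaffold that joins the cap-binding protein to the helicase, was at 1.82 and 3.56 in naive, 3.25 and 3.54 in sham, 4.21 and 3.96 in surviving pools and 1.34 and 3.53 in dying pools. The surviving pools were the highest of the 8 on this probe, but the difference of 1.65 from dying neurons (adjusted p = 0.303, 2 of 2 pools) was 0.55 without dying replicate 1 and 2.74 without dying replicate 2. Eif4g3, a related scaffold, was at 5.90 and 6.46 in naive, 7.02 and 6.89 in sham, 5.27 and 4.71 in surviving pools and 3.28 and 4.51 in dying pools, and fell by 3.06 in dying against sham neurons (adjusted p = 0.00661, 2 of 2 pools). Eif4b, a cofactor of the helicase, was at 4.73 and 5.53 in naive, 5.97 and 5.73 in sham, 5.36 and 5.02 in surviving pools and 4.70 and 4.78 in dying pools, 0.45 higher in surviving than in dying neurons (adjusted p = 0.646, 2 of 2 pools), which was 0.28 without surviving replicate 1 and turned in the mean over its probes (-0.43). The cap-binding protein gene Eif4e fell by 2.67 in dying against sham neurons (adjusted p = 0.0160, 2 of 2 pools). The helicase gene Eif4a2 fell by 1.82, where the spot on dying replicate 1 was left out so that 1 of 1 dying pool showed the direction. Neither gene passed in each of the 4 other scalings.

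Of the inhibitors of eIF4E, Eif4ebp1 went the other way and Eif4ebp2 did not. Eif4ebp1, for the 4E-binding protein that mTOR phosphorylates, was at 3.40 and 4.36 in naive, 4.24 and 3.88 in sham, 6.0 and 5.17 in surviving and 6.56 in dying replicate 2, the spot of dying replicate 1 being left out as non-uniform. Its other probe was at 2.16 and 3.55 in naive, 3.14 and 3.1 in sham, 5.07 and 4.15 in surviving pools and 6.41 and 5.45 in dying pools. On both probes every injured pool measured was above every uninjured pool, and the dying pools were the highest. Against sham the main probe rose by 2.50 in dying neurons (adjusted p = 0.0305, 1 of 1 pool) and the other by 2.81 (adjusted p = 0.0130, 2 of 2 pools), while the differences of 1.52 and 1.49 in surviving neurons (adjusted p = 0.114 and 0.143, 2 of 2 pools) did not pass as reported. Both probes passed there in each of the 4 other scalings, the main probe at 2.30 to 2.49 (adjusted p = 0.0121 to 0.0220), and neither with normexp. Between surviving and dying neurons they differed by -0.98 (adjusted p = 0.479, both surviving pools below the 1 dying pool measured) and -1.32 (adjusted p = 0.293, 2 of 2 surviving pools lower), where the first was -0.56 without surviving replicate 2 and the other turned to 0.28 with normexp. A further probe, named AI178828 on the array, is listed by the study under the same gene and was picked by it on these arrays, but the annotation used here gives it no symbol. Its level was 0.73 and -1.81 in naive, -2.47 and -2.28 in sham, -0.73 and -1.53 in surviving pools and 2.92 and 0.97 in dying pools, at least 4.50-fold higher in dying than in sham neurons (adjusted p = 0.0104, 2 of 2 pools), which was at least 2.29-fold (adjusted p = 0.0601) without dying replicate 1 and at least 8.85-fold without dying replicate 2, and the adjusted p was 0.0673 without sham replicate 1. Eif4ebp2, for a related binding protein, was at 3.50 and 5.07 in naive, 5.06 and 5.11 in sham, 5.27 and 4.95 in surviving pools and 3.67 and 5.50 in dying pools, which overlapped, with a difference of 0.53 between surviving and dying neurons (adjusted p = 0.729) and of -0.50 between dying and sham neurons that was above 0 in the 4 other scalings.

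The elongation factors as a group had a median difference of 0.05 between surviving and dying neurons over 9 probes, -0.11 under quantile normalization and 1.52 with the normexp correction. Of the 9 probes 6 were higher in surviving neurons, beside 55.9% of all probes and 66.1% of RefSeq mRNA probes. Without overlap 3 were higher and 0 lower, beside 30.2% higher and 21.5% lower of all probes and 36.7% and 11.5% of RefSeq mRNA probes. How far they differed from the initiation factors was not tested. Several subunits of the eEF1 complex were at high levels. Eef1g, for the gamma subunit, was at 9.75 and 10.49 in naive, 10.83 and 10.53 in sham, 11.06 and 10.74 in surviving pools and 11.09 and 10.81 in dying pools. Eef1a2, for the tRNA carrier of mature neurons and muscle, was at 9.62 and 10.37 in naive, 10.71 and 10.58 in sham, 10.72 and 10.62 in surviving pools and 11.16 and 10.40 in dying pools. Eef1b2, for the nucleotide exchange subunit, was at 9.26 and 9.69 in naive, 10.12 and 9.76 in sham, 9.12 and 9.26 in surviving pools and 9.32 and 8.99 in dying pools. In these genes surviving and dying pools overlapped, with differences of -0.05, -0.11 and 0.03 whose signs changed with the scaling or correction and which were 1.37, 1.39 and 1.52 with normexp. Eef1d, for another exchange subunit, was at 8.0 and 8.79 in naive, 9.06 and 8.86 in sham, 8.69 and 8.61 in surviving pools and 9.14 in dying replicate 2, the spot of the other dying pool being left out. Eef2, for the translocase, was at 7.05 and 7.71 in naive, 8.02 and 7.49 in sham, 7.76 and 7.52 in surviving pools and 7.19 and 8.0 in dying pools, which overlapped, with a difference of 0.05 that was -0.26 under quantile normalization and 1.47 with normexp.

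Other genes of the group differed more. Eef1a1, for the tRNA carrier of most other cells, was at 6.89 and 8.44 in naive, 7.92 and 7.63 in sham, 7.96 and 6.71 in surviving pools and 4.38 and 6.92 in dying pools. Dying replicate 1 was far below the other 7 pools while dying replicate 2 lay among them, and the difference of 1.69 between surviving and dying neurons (adjusted p = 0.336, 1 of 2 surviving pools above both dying pools) was 0.42 without dying replicate 1, 1.07 without surviving replicate 1 and 2.96 without dying replicate 2. Eef1e1, named as an elongation factor but known as a scaffold of the tRNA synthetase complex, was at 4.01 and 4.45 in naive, 4.72 and 4.32 in sham, 4.21 and 4.22 in surviving pools and 3.03 and 2.21 in dying pools. On this scale surviving pools were level with the uninjured ones and both dying pools below them. Eef1e1 differed by 1.60 (SE 0.51) from surviving neurons (adjusted p = 0.160, 2 of 2 pools) and fell by 1.90 from sham (adjusted p = 0.0209, 2 of 2 pools). The call against sham was lost with the 75th percentile, quantile normalization, the scaling by probes well above background and normexp. Eef2k, for the kinase that inactivates eEF2, was at 3.08 and 3.68 in naive, 4.75 and 4.63 in sham, 3.13 and 4.21 in surviving pools and 4.74 and 4.32 in dying pools. It was the member with the lowest unadjusted p in sham against naive neurons, and on this probe the dying pools overlapped with sham while the surviving pools were lower, a difference of -0.86 from dying neurons (adjusted p = 0.408, 2 of 2 pools lower) that was -0.32 without surviving replicate 1, -1.40 without surviving replicate 2 and 0.43 with the normexp correction. The other probe of Eef2k was at 0.55 and 1.29 in naive, 1.64 and 1.51 in sham, -1.23 and -2.21 in surviving and, unlike the main probe, below sham in dying pools, at -3.64 and -0.40. It was well above background on 1 array of each injured group, at least 5.49-fold lower in dying (adjusted p = 0.0215, 2 of 2 pools) and at least 8.02-fold lower in surviving than in sham neurons (adjusted p = 0.0535, 2 of 2 pools), and the call in dying neurons was kept under quantile normalization but lost in the 4 other scalings and corrections and without either sham replicate or dying replicate 1.

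The name rule also takes in 4 genes called Eif2c on the array, which encode Argonaute proteins of RNA silencing and not initiation factors. Eif2c1 (Ago1) was measured on all 8 arrays and overlapped between surviving and dying pools, Eif2c2 (Ago2) was well above background on 6 arrays, and Eif2c3 (Ago3) and Eif2c4 (Ago4) on 0. Without these genes, 34 of 71 member probes were higher in surviving neurons without overlap and the median difference was 0.53, as with them.

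Probes of the same gene did not always go the same way. Of 17 genes with several probes tested between surviving and dying neurons, 8 had probes of both signs and 7 had probes that differed by more than 1 on the log2 scale. Eef1g was among them, with other probes at 0.91 and 1.57 beside -0.05 for the main probe, and so was Eif3s6ip (Eif3l), with 1.75 beside -0.17. For Eif2s3x, another probe gave -1.06, with 6.21 in dying replicate 1 and 3.98 in dying replicate 2.

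Against sham, most member probes were lower in both injured groups relative to the array median, although in surviving neurons the median turned above 0 in the 5 other scalings and corrections. In surviving neurons, 7 of 72 member probes passed an adjusted p of 0.05 (15.5% of all 26910 probes), all 7 lower and 0 higher, where 9.95% of all probes were lower and 5.55% higher, so that the 9.72% of the members was near the array's share. They were 1 probe each of Eif2ak4, Eif2s2 and Eif4g2, and 2 each of Eif2s3x and Eif5b. Both surviving pools lay below both sham pools for 47 member probes, or 65.3%, beside 48.9% of all probes. The median difference was -0.74 against -0.43 for all probes. In the fit without 1 array, the count was 0 without either sham or either surviving replicate and 15 without dying replicate 1 or dying replicate 2.

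In dying neurons, 32 of 74 member probes passed, or 43.2%, close to the 40.1% of all 25629 probes, but with more of them lower: 29 fell, or 39.2%, beside 26.9% of all probes, and 3 rose, or 4.05%, beside 13.2%. The 3 that rose were both probes of Eif4ebp1 and the dim probe of Eif3s10. Both dying pools lay below both sham pools for 48 member probes, or 64.9%, beside 45.4% of all probes, and the median difference was -1.17, against -0.47 for all probes and -0.81 for RefSeq mRNA probes. By role, the medians were -2.29 for eIF2B, -2.07 for eIF1 and eIF5, -1.76 for eIF2 with Eif2a, -1.17 for eIF3, -1.11 for eIF4 and -0.77 for the elongation factors, the last of which turned to 0.47 under quantile normalization, 0.03 with the series table and 0.24 when scaled by the probes that exceeded background on each array. The count of 32 fell when either sham replicate was left out, so that most of the single calls against sham needed both sham arrays. A single sham array lowers the power for every probe, here and in surviving against sham neurons. This loss of calls is therefore not read as a trait of the members.

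**Figure D4:**
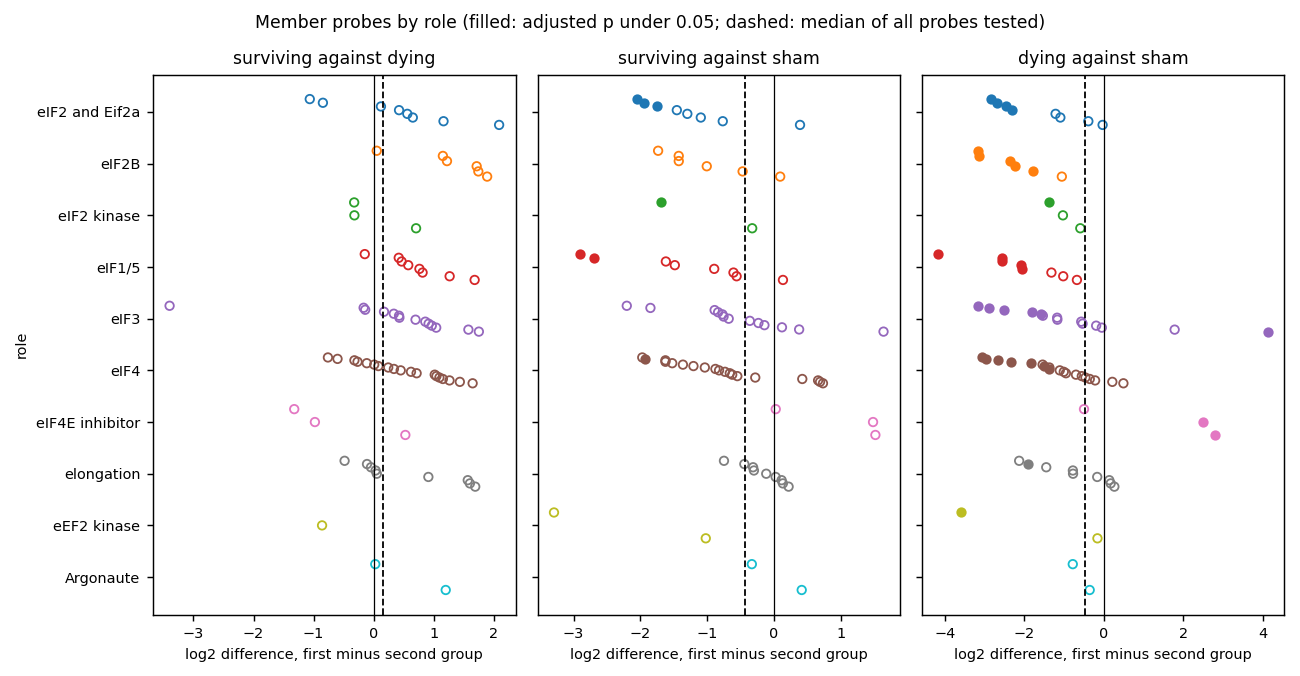
Log2 difference of each member probe tested, by role, in surviving minus dying, surviving minus sham and dying minus sham neurons; filled points passed an adjusted p of 0.05 in limma and the dashed line is the median of all probes tested. The 6 eIF2B probes are all above 0 between surviving and dying neurons, 1 of them turning under quantile normalization, and 5 of them are filled and below 0 in dying against sham neurons, a count of 3 in the 4 other scalings and 0 with normexp, whereas the surviving minus sham medians of eIF3 and eIF4 turn with the scaling.

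How far these comparisons with sham lie from 0 depended on the scaling. The 75th percentile, quantile normalization, the series table and the median of probes well above background on all 8 arrays, each in place of the array median, raised the median of all probes by 0.78, 0.61, 0.88 and 0.97 in surviving and by 0.72, 0.68, 0.81 and 1.01 in dying against sham neurons, and the normexp correction by 0.52 and 0.19. The median of the members in surviving neurons turned positive in all 5, to between 0.038 and 0.26, and lay 0.31 below that of all probes as reported, as it did with the 75th percentile, the series table and the probes above background, 0.10 below it under quantile normalization and 0.17 above it with normexp. In dying neurons it stayed negative, 0.70 below the median of all probes as reported and in those 3 scalings, 0.56 below it under quantile normalization and 0.82 below it with normexp. The split of calls moved too. Over those 4 scalings 15 to 18 member probes were lower and 4 to 10 higher in dying neurons, in place of 29 and 3. In surviving neurons 1 to 3 were lower and 2 to 7 higher, in place of 7 and 0. The calls over all probes moved the same way. As reported, 32.9% of them were higher in dying and 35.8% in surviving neurons. In the others the shares were 56.1 to 68.0% and 58.9 to 77.5%. With normexp, limma called 0 of all probes in either comparison.

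Read by main probe, 21 of 47 genes tested passed in dying against sham neurons, 20 lower and 1 higher, where 40.1% of all probes passed. All 21 had the same sign in the 5 other scalings and corrections. Of them, 10 passed in each of the 4 other scalings: Eif2a, Eif2s1, Eif2s3x, Eif2b2, Eif2b3, Eif1b, Eif5, Eif3s6 and Eif4g3 were lower and Eif4ebp1 higher. The share of all probes that passed in every one of these scalings was not counted. Relative to the median of all probes, the differences of the lower genes ran from -2.69 to -1.61 and that of Eif4ebp1 was 2.97. Between surviving and dying neurons the scalings moved the median of all probes by -0.08 to 0.06 and normexp by 0.20, and the eIF2B median lay 1.31 above it as reported and 1.02 to 1.37 above it in the others. With normexp, though, single differences moved by over 1.5 times, to 3.28 for Eif2b2, 2.86 for Eif1b and for Eef1a1, 2.50 for Eif3s9, 2.35 for Eif5a, 2.07 for Eif3s4, 1.95 for Eif2ak1, 1.73 for Eif4b, 0.54 for Eif2b1 and -0.40 for Eif4ebp1. Quantile normalization moved as far Eif5a (0.48), Eif2ak1 (0.41) and Eif4b (0.21), the mean over its probes Eef2k (-0.28), and the series table and the non-uniform spots kept Eif4ebp1 (-1.48 and -1.55). Over all alternatives but single arrays left out, other differences also rose as far. Their highest values were 1.34 for Eif2b5, 1.84 for Eif4g3, 1.47 for Eif5b, 1.69 for Eif2s3x and 1.57 for Eif2s2. The difference of AI178828 came as near to 0 as -0.83.

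**Figure D5:**
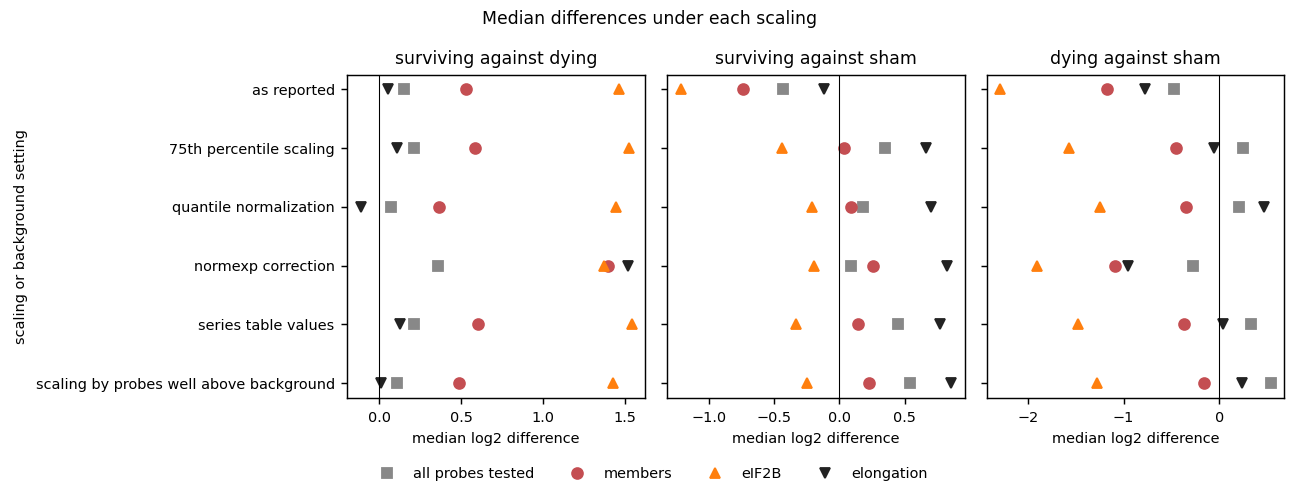
Median log2 difference of all probes tested, the member probes, the eIF2B probes and the elongation factor probes in 3 comparisons, under the reported values and 5 other scalings and corrections. In dying against sham neurons all medians move with the scaling but the eIF2B median stays below that of all probes, while the elongation factor median changes sign, and in surviving against sham neurons the member median changes sign.

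Between sham and naive neurons, 0 of 72 member probes passed in limma, as did 0 of all 20739 probes (0%), and 1 member probe, the main probe of Eef2k, had an unadjusted p under 0.05, or 1.39% beside 4.0% of all probes. Both sham pools lay above both naive pools for 30 member probes, or 41.7%, near the 38.4% of all probes, and the median difference was 0.46 against 0.40. It was -0.020 without naive replicate 1, whose members were lower than those of naive replicate 2 by a median of -0.78 between the replicates, and 0.83 without naive replicate 2.

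Genes that act beside these factors were taken from lists, whose counts stand beside 5.55% of all probes rising and 9.95% falling in surviving and 13.2% rising and 26.9% falling in dying against sham neurons. Calls of these lists and of the markers below are given with the array median alone. Of 9 genes of release, recycling and poly(A) binding, 7 were found, and 0 of 7 passed between surviving and dying neurons in limma, 0 with an unadjusted p under 0.05, with a median of 0.22; against sham, 2 fell in surviving and 3 in dying neurons and 0 rose. Gspt1, for the release factor eRF3, fell by 2.33 in dying against sham neurons (adjusted p = 0.00798, 2 of 2 pools). Of 18 genes of mTOR and MAP kinase input, 10 were found, with 0 of 10 passing between surviving and dying neurons (3 unadjusted), 1 rise in surviving and 2 rises and 3 falls in dying against sham neurons. Rheb, for the GTPase that activates mTOR, was at 6.92 and 7.65 in naive, 7.75 and 7.41 in sham, 6.81 and 6.25 in surviving pools and 4.61 and 5.28 in dying pools, a fall by 2.64 from sham (adjusted p = 0.00823, 2 of 2 pools). Of 7 mitochondrial translation factors 3 were found, 0 passing between surviving and dying neurons (1 unadjusted), 0 in surviving against sham neurons (2 unadjusted) and 2 falling in dying against sham neurons, Mtif2 by 2.02 (adjusted p = 0.0145, 2 of 2 pools).

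Of 17 genes that lie downstream of the eIF2 kinases in the integrated stress response, 15 were found, 0 of 13 tested passed between surviving and dying neurons (3 unadjusted) and 0 of 14 in surviving against sham neurons (2 unadjusted), while in dying against sham neurons 2 of 14 rose and 3 fell, beside 13.2 and 26.9% of all probes. Atf3, an induced transcription factor, was at 0.42 and 0.57 in naive, 2.40 and 0.37 in sham, 3.54 and 3.87 in surviving pools and 6.03 and 5.76 in dying pools, a rise by 4.51 from sham (adjusted p = 0.00372, 2 of 2 pools). Other genes of the list did the reverse: Asns, for asparagine synthetase, fell by 2.50 (adjusted p = 0.0143, 2 of 2 pools) and Ddit3, for CHOP, by 1.54 (adjusted p = 0.0334, 2 of 2 pools) in dying neurons. These falls are relative to the array median, and the 4 other scalings raised the median of all probes there by 0.68 to 1.01. Atf4 itself, whose protein level is set by translation, was at 8.29 and 8.67 in naive, 9.21 and 9.04 in sham, 8.89 and 8.90 in surviving pools and 7.52 and 8.61 in dying pools and did not pass.

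Of the markers of other cells, some microglial and endothelial genes rose in dying against sham neurons, where 13.2% of all probes rose and 26.9% fell, while 0 of the astrocyte, oligodendrocyte and interneuron genes did in limma. All of the 6 lists of markers had genes well above background in every pool. The excitatory neuron list, with 8 of 10 genes found and Nrgn the brightest on average over the 8 arrays, had summed levels over the array median of 6110 and 9140 in naive, 12400 and 10600 in sham, 7320 and 7140 in surviving pools and 4830 and 4360 in dying pools. The 10 microglia and macrophage genes, C1qa the brightest on that average but below C1qb in both dying pools, summed to 121 and 254 in naive, 265 and 243 in sham, 307 and 339 in surviving pools and 1940 and 1060 in dying pools, and 5 of 8 tested rose in dying against sham neurons. The endothelial list, with 5 of 6 genes found and Kdr the brightest, summed to 43.0 and 74.6 in naive, 84.0 and 64.4 in sham, 55.3 and 50.1 in surviving pools and 248 and 122 in dying pools, with 2 of 4 tested rising. The 6 of 7 astrocyte genes found, Slc1a3 the brightest, summed to 654 and 773, 1200 and 769, 422 and 436, and 979 and 444 in the same order of groups. The 5 of 7 oligodendrocyte genes, Mog the brightest, summed to 170 and 271, 232 and 304, 62.4 and 66.9, and 178 and 75.0. The 6 interneuron genes, Pvalb the brightest on that average, summed to 312 and 453, 415 and 394, 164 and 147, and 668 and 157. In dying replicate 1, though, Sst (log2 level 8.48) and Vip (7.83) lay above Pvalb (5.83). Vip did so too in naive replicate 1 (7.12 against 6.68) and Sst in naive replicate 2 (7.64 against 7.2). Brightness compares different probes and so orders transcripts only roughly. Of the defining markers, Tek was well above background on 0 arrays and Ptprc on 1. In dying against sham neurons 2 of 8 excitatory neuron genes tested fell and 0 rose, with a median of -1.70, and 2 of 5 astrocyte, 1 of 5 oligodendrocyte and 2 of 6 interneuron genes fell and 0 rose. The part of other cells in the lower level of initiation factors in dying pools was not tested.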

How the data were processed

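Neurons were captured by laser, and their RNA was amplified, labelled and hybridized by the authors. For the amplification the paper gives MessageAMP II, while each sample label names Arcturus RiboAmp HS or, alternatively, MessageAMP II without saying which pool had which, so that a difference of kit between groups could not be checked. The processed intensity of each spot was deposited by the authors as Agilent Feature Extraction 9.1.3.1 wrote it, with background subtracted and no normalization between arrays; the authors used GeneSpring GX 7.3.1 and scaled each array, and then each gene, to its median. The signal values deposited by the authors as the series table were compared with the processed signal above the table's median for each array. There 99.8 to 100% of them equalled the processed signal divided by 1 constant per array, within 1%. Lower values were not compared. The medians of the table ran from 0.131 to 0.282, and what the constant is stays unknown. The mean and local background intensities of the spots, also deposited by the authors, were used for normexp.

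Spots with the non-uniformity mark were dropped and the remaining spots averaged per probe. Division by the array median, a floor of 0.01 and log2 followed. A probe counted as well above background on an array where at least 0.5 of its spots were so marked. In limma 3.58.1 (R 4.3.3; tables and figures with Python 3.11, pandas 2.3.3, numpy 2.4.6 and matplotlib 3.10.9), a model with a mean for each of the 4 groups used every probe on the 8 arrays and left 4 residual degrees of freedom. Tested in a comparison were probes with the background mark on both pools of either group, and two-sided p-values were adjusted over all of these by Benjamini-Hochberg, with a threshold of 0.05. Tested on simulated data, the fit recovered the differences put in on average, but did not call the smaller ones or, where few probes differed, any. Where a group was not well above background, a bound took, for each of its arrays, the higher of the lowest signal among probes well above background and the probe's own. Precision is limited by 2 arrays per group.

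Of the member probes, 44 were matched to the RefSeq annotation by accession and the rest by symbol or synonym. Genes named in full were Eif2s1 and the AI178828 probe, all genes of eIF2, its kinases, eIF2B and elongation, and, of eIF3, eIF4 and the group of eIF1 and eIF5 (an eIF6 gene was allowed for, but none has a probe among the members), up to 3 in each direction with the largest difference between surviving and dying neurons among those well above background on all 4 arrays without overlap; others are examples. The members, the lists of other genes and the cell markers were chosen with earlier results of these data known. The alternatives were other scalings, normexp with an offset of 50, a floor of 0.1, looser and stricter filters, non-uniform spots kept, a replicate block, single arrays left out, a trend with robust spread, only the 4 arrays compared and other probes per gene. After the data were seen, a scaling by probes well above background, 4 other probe sets for the fit and the choice of spots behind the median and the background mark were added; the last was the version run first, and it was replaced after its results were seen.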

Additional observations from a re-analysis of the deposited data

Results flagged for a closer look

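Eif2c2 (Ago2) lay on opposite sides of sham in the 2 injured groups: both surviving pools lay above both sham pools, a difference of 0.42, and both dying pools lay below them, a difference of -0.78, so that the groups were 1.20 apart. The side of dying neurons depended on the scaling, since their difference from sham turned to 0.027 with the series table and 0.23 with the scaling by probes well above background, so that both injured groups were then above sham. The opposite directions were not tested as such; the direct comparison of surviving with dying neurons had an adjusted p of 0.288 in limma, with 2 of 2 surviving pools higher. The probe was well above background on 6 of 8 arrays, with 1 of the 2 dying arrays among the others. Surviving neurons were 2.29-fold higher, a limit equal to the measured difference because the dim array's own signal was used. That limit allows for background and not for the spread between pools. It was 1.59-fold without dying replicate 1 and 3.31-fold without dying replicate 2, and lay between these without either surviving replicate.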

How the results depend on the processing

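Among the 31 single gene or probe results between surviving and dying neurons, 20 kept their sign under every alternative and 11 did not. With normexp, the sign turned for Eef2k (0.43), Eif2ak4 (0.55), Eef1a2 (1.39) and Eef1g (1.37); under quantile normalization for Eif2s2 (-0.16), Eif2b5 (-0.079), Eef1b2 (-0.23) and Eef2 (-0.26); with the mean over the probes of a gene for Eif2s3x (-0.45), Eif4b (-0.43) and Eef1g (0.81). Eef1g also turned with the 75th percentile (0.011) and the series table (0.028), and Eef1b2 with the scaling by probes above background (-0.011). With 1 array left out, the ranges that crossed 0 were -0.072 to 0.31 for Eif2s2, -0.68 to 0.035 for Eif2ak3 (dim on 1 surviving array), -0.60 to 0.70 for Eif2b5, -0.49 to 0.27 for Eef1a2, -0.13 to 0.20 for Eef1b2, -0.21 to 0.12 for Eef1g and -0.35 to 0.46 for Eef2. Without dying replicate 2, Eif3s9 (2.24, adjusted p = 0.0368) and AI178828 (-4.05, adjusted p = 0.0447) passed, while without dying replicate 1 they were 0.91 and -2.10 and did not. The lone array of a group is then assumed to vary like the other groups.

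The count of member probes called was 0 between surviving and dying neurons under every alternative but that one, with 0 to 6 over single arrays left out (22 with an unadjusted p under 0.05 without dying replicate 2). Against sham, surviving neurons had 3 with the 75th percentile, 0 with normexp, 12 with a floor of 0.1, 3 with the stricter filter, 15 with a trend and robust spread, 23 with the 4 arrays compared alone, 14 in the fit on probes above background on all arrays, and 0 to 15 over single arrays left out. Dying neurons had 0 with normexp and 1 to 31 with single arrays left out, and sham against naive 0 throughout. The median difference of the members between surviving and dying neurons was 1.39 with normexp and 0.35 to 0.64 over single arrays left out. Under the 75th percentile, quantile normalization, normexp, the series table and the scaling by probes above background, in this order, it turned to 0.038, 0.086, 0.26, 0.14 and 0.23 in surviving against sham neurons and became 0.16, 0.080, 1.04, 0.10 and 0.021 in sham against naive. In dying against sham neurons it was -0.45, -0.35, -0.36 and -0.16 without normexp. With single arrays left out these medians ran from -0.89 to -0.54, from -0.020 to 0.83 and from -1.38 to -1.04. Probes lower in surviving neurons without overlap were 14 under quantile normalization, 2 with normexp and 11 to 18 over single arrays left out. Those higher were 41 to 46. With a single array left in a group, any probe separates more easily. The cause of these shifts was not tested, and dim probes, which give bounds only, limit what low levels show.

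With the replicate number as a block, the count was 2 in surviving and 25 in dying against sham neurons and 0 in the other comparisons. The labels do not tie same-numbered pools together. The correlation of their deviations over 15254 probes was -0.195 to 0.072 in 6 pairs of groups. With 2 pools per group, this correlation cannot tell whether pools of different groups shared rats, so that a pairing was not excluded. The version run first, with the median and the background mark from uniform spots alone, gave counts of 0, 10, 33 and 0 for surviving minus dying, surviving minus sham, dying minus sham and sham minus naive. The 4 other probe sets for the fit gave 0, 7 to 14, 29 to 38 and 0, with 9 to 15 members at an unadjusted p under 0.05 between surviving and dying neurons. Medians were called the same within a spread of 0.22.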
